A study of Homo sapiens
Mus musculus with 24 samples.

Results

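The comparison described here is that of MC + Chemo with CTRL, the tumors of obese mice given moringa seed concentrate together with chemotherapy against the tumors of obese mice given vehicle. Libraries were assigned by the prefix of their GEO title, which gave 6 MC + Chemo and 4 CTRL libraries, or 10 of the 24 libraries in the series. Female B6/Rag1KO mice, which lack mature T and B cells, were made obese on a high-fat diet and carried MDA-MB-231 cells, a human triple-negative breast cancer line, placed under the skin at the base of the neck when the mice were aged 14 weeks and had been on the diet for 10 weeks. CTRL mice received weekly intraperitoneal saline. MC + Chemo mice ate a high-fat diet containing the concentrate (MC) and received weekly intraperitoneal doxorubicin and cyclophosphamide, the former a topoisomerase poison and the latter an alkylating prodrug. All 10 mice therefore shared the strain, the Rag1 deletion, the high-fat diet and the cell line. Each library was a tumor of a different mouse number, sequenced from the 3′ ends of its transcripts, with reads counted on the human genome for the tumor cells and on the murine genome for the host cells. Library MC + Chemo 5 carries the combination in its title and MC alone in its group field. It was kept with MC + Chemo by its title, and the alternative is given in the closing section.

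A xenograft holds human cancer cells inside murine stroma, vessels, blood and immune cells, so the 2 count tables separate the compartments by species. Without T and B cells the host response rests on natural killer cells, macrophages, dendritic cells and granulocytes, and the tumor cells answer through interferon-induced genes and class I molecules that display peptides on their surface. Doxorubicin and cyclophosphamide damage DNA, which in most cells induces p53 targets and slows division. MDA-MB-231 carries mutant p53 and is known as a mesenchymal line with abundant vimentin and no E-cadherin.

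The 10 libraries held 7895726 to 16669238 human and 3664056 to 7919564 murine counts, and human counts were 62.5% to 74.0% of each library. Values below are counts normalized by edgeR's TMM factors unless a log2 scale is named. A log2 fold change is MC + Chemo over CTRL, given ± its standard error from a fit to all 20 libraries of obese mice (4 CTRL, 5 Chemo, 5 MC, 6 MC + Chemo). A gene was called when its adjusted p (edgeR quasi-likelihood test, Benjamini-Hochberg) was under 0.05, its mean normalized count over the 20 libraries was above 30 and its fold change was above 1.5.

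The 4 CTRL tumors were not alike in their human genes. On the first principal component of the 1000 most variable human genes, which carried 73.7% of their variance, CTRL 17 lay at -112.82 and CTRL 44 at -62.46, whereas CTRL 31, CTRL 70 and the 6 MC + Chemo tumors lay between 11.05 and 32.36. CDH1 (E-cadherin, the main adhesion molecule of epithelial cells) had 2.93, 3183, 335 and 3081 normalized counts in CTRL 17, 31, 44 and 70 and 2763 to 4689 (median 4362) in MC + Chemo. EPCAM, an epithelial surface protein, had 79.1, 2972, 592 and 3495 in CTRL and 2774 to 5739 (median 3758) in MC + Chemo. KRT5, a basal keratin, had 0.976, 1384, 260.2 and 795 in CTRL against 898 to 2129 (median 1331). VIM (vimentin, the mesenchymal filament) ran the other way, at 77017, 11219, 53865 and 10522 in CTRL and 6667 to 17232 (median 10722) in MC + Chemo. CTRL 17 thus matched the textbook profile of the labelled line, CTRL 44 lay between, and the other 8 tumors expressed E-cadherin, which MDA-MB-231 is known to lack. What set CTRL 17 and CTRL 44 apart was not tested. In bulk tissue, fewer cells of a type and less RNA per cell cannot be told apart. The main human results below are therefore given with and without these 2 libraries.

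**Figure D1:**
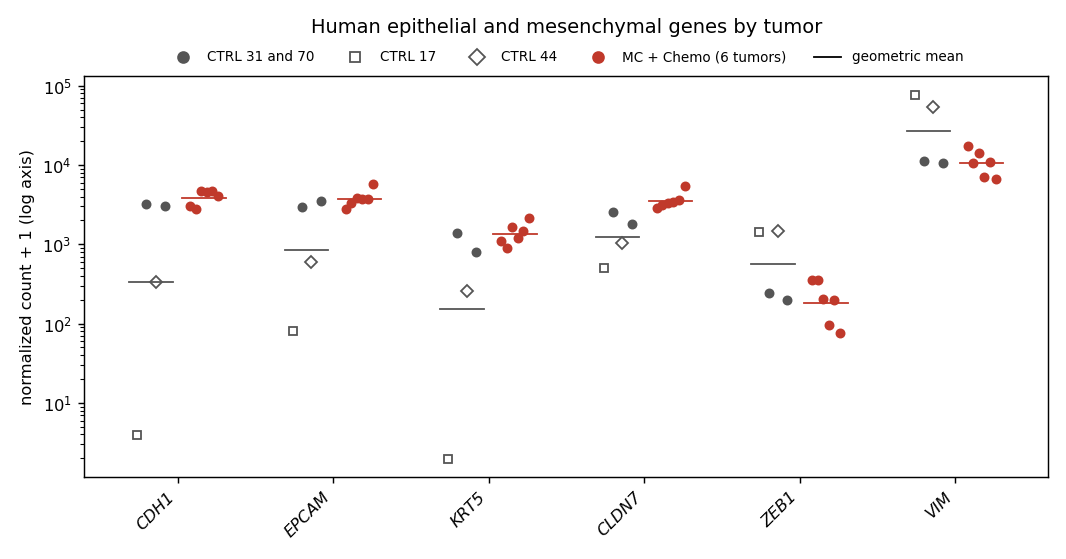
Normalized counts plus 1 on a log axis for 6 human epithelial and mesenchymal genes, 1 symbol per tumor, with the geometric mean of each group as a line. CTRL 17 (open square) and CTRL 44 (open diamond) are lowest for CDH1, EPCAM, KRT5 and CLDN7 and highest for ZEB1 and VIM, and CTRL 31 and CTRL 70 lie beside the MC + Chemo tumors.

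Between MC + Chemo and CTRL, 264 of 16434 human genes tested were called (1.61%), of which 75 were higher (0.456%) and 189 lower (1.15%) in MC + Chemo. DESeq2 called 795 of 18868, with 349 higher (1.85%) and 446 lower (2.36%). All 6 MC + Chemo tumors lay above all 4 CTRL tumors for 372 human genes (2.26%) and below them for 474 (2.88%). Among the called genes, 70 of the 75 higher and 102 of the 189 lower did not overlap between the groups. CTRL 17 and CTRL 44 lay below CTRL 31 and CTRL 70 in 65 of the 75 genes called higher (86.67%, against 30.33% of all tested). They lay above them in 140 of the 189 genes called lower (74.07%, against 26.6% of all tested). Without those 2 libraries edgeR called 0 human genes, with 2005 at an unadjusted p under 0.05, and DESeq2 called 37. The direction stayed in 75 of 75 genes called higher and 184 of 189 called lower, against 11625 of all 16434 tested. Genes whose groups do not overlap can hardly change direction when controls are left out, so these counts are no test. The median log2 fold change went from 0.90 to 0.59 in the genes called higher and from -0.94 to -0.56 in those called lower. The count of 264 also went to 0 when CTRL 17, CTRL 44 or combination tumor 47 or 52 was left out on its own. It was 1176 without CTRL 31, 887 without CTRL 70, 107 without combination tumor 5, 70 without 43 and 81 without 50.

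Interferon-stimulated genes were the list with the most called members on the higher side. Of 48 tested, 9 were called higher (against 0.456% of all human genes) and 0 lower. DESeq2 called 28 of the 48 higher (against 1.85%), and in 27 all combination tumors lay above all controls (against 2.26%). The list had a median log2 fold change of 0.98 against -0.02 over all human genes, and 47 of 48 were above 0. Without CTRL 17 and CTRL 44 the median was 0.45 and 45 of 48 were above 0. ISG15, a ubiquitin-like protein that interferon induces and that is conjugated to other proteins, had 582, 2966, 911 and 2305 normalized counts in CTRL 17, 31, 44 and 70 and 3892 to 6536 (median 5588) in MC + Chemo. Every MC + Chemo tumor was above every CTRL tumor, and CTRL 31 and 70 were the closest. The log2 fold change of ISG15 was 1.71 ± 0.33 (edgeR adjusted p = 0.0305) and 1.07 without CTRL 17 and 44. OASL, an antiviral relative of the oligoadenylate synthetases, had 59.5, 186, 68.5 and 118 in CTRL and 227 to 505 (median 245) in MC + Chemo, with a log2 fold change of 1.51 ± 0.32 (edgeR adjusted p = 0.0327, 1.03 without CTRL 17 and 44). IFITM3, which blocks virus entry at the endosome, had 4357, 17403, 9278 and 12256 in CTRL against 20458 to 32121 (median 23383), with 1.17 ± 0.28 on the log2 scale (edgeR adjusted p = 0.0403, 0.72 without CTRL 17 and 44). The other 6 called members were UBE2L6 and HERC5, the conjugating enzyme and the ligase of ISG15, and IFI35, ISG20, DTX3L and SAMD9, at log2 fold changes of 0.75 to 1.17.

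Several interferon-induced genes with large differences did not pass the edgeR test, and the controls were widely spread in each. They were chosen after their values were seen. IFI6 had 393, 16594, 1357 and 12512 in CTRL and 25108 to 33471 (median 28180.2) in MC + Chemo, with no overlap and a log2 fold change of 1.91 ± 0.62 (edgeR adjusted p = 0.0858, 1.00 without CTRL 17 and 44). RSAD2, the antiviral enzyme viperin, had 3.90, 408, 37.97 and 388 in CTRL against 588 to 1095 (median 794) (log2 fold change 1.93 ± 0.62, edgeR adjusted p = 0.0826, 1.00 without them). MX1, a dynamin-like antiviral GTPase, had 59.5, 3480.2, 632 and 2868 in CTRL against 3644 to 4676 (median 4287) (log2 fold change 1.26 ± 0.56, edgeR adjusted p = 0.188, 0.41 without them). Its groups did not overlap, and CTRL 31 lay close to the lowest combination tumor. CXCL10, an interferon-induced chemokine, had 5.86, 208, 12.04 and 151 in CTRL against 135 to 580.2 (median 302), and its groups overlapped. IRF9, a transcription factor of the interferon response, was the only list member below 0, at -0.06 on the log2 scale. Of 50 murine interferon-stimulated genes tested in the host cells of the same tumors, 0 were called by either tool, 11 were above 0 and the median was -0.28 against 0.01 over all murine genes (0.01 without CTRL 17 and 44).

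Class I antigen presentation genes accompanied them. Of 15 tested, 3 were called higher (TAP1, B2M and PSMB8, against 0.456% of all human genes) and 0 lower. The median log2 fold change of the list was 0.49, and 0.40 without CTRL 17 and 44. B2M, the invariant chain of all class I molecules, had 7227, 16504, 14738 and 15246 in CTRL and 22216 to 40276 (median 25484) in MC + Chemo, a log2 fold change of 1.03 ± 0.21 (edgeR adjusted p = 0.0305, 0.79 without CTRL 17 and 44). TAP1, a subunit of the peptide transporter into the endoplasmic reticulum, had 308, 735, 565 and 891 in CTRL against 1053 to 1653 (median 1339), a log2 fold change of 1.10 ± 0.22 (edgeR adjusted p = 0.0305, 0.72 without them). Neither gene overlapped between the groups, and CTRL 17 was lowest in both. PSMB8, an immunoproteasome subunit, had 392.4, 757, 636 and 998 in CTRL against 979 to 1812 (median 1181), so that MC + Chemo 50 lay below CTRL 70. The heavy chain HLA-B, named by the rule, had 1905, 9713, 5545 and 10043 in CTRL against 14266 to 21459 (median 17946), with a log2 fold change of 1.39 ± 0.31 (edgeR adjusted p = 0.0347, 0.85 without CTRL 17 and 44). HLA-C (1.12 ± 0.23), which is outside the list and was chosen after its values were seen, was called too. Reads of these near-identical genes can be split among them by the counting, so their separate values are uncertain. The peptide-trimming enzyme ERAP2, at -0.04, had the lowest log2 fold change of the list.

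Epithelial defence genes had large fold changes. All 13 tested antimicrobial epithelial genes had a log2 fold change above 0, and the median was 1.62 (0.69 without CTRL 17 and 44). Of the 13, edgeR called 2 higher (S100A8 and PI3, against 0.456% of all human genes) and DESeq2 4 (against 1.85%). S100A8, a calcium-binding subunit of calprotectin, had 0.976, 62.5, 0 and 27.01 normalized counts in CTRL and 97.7 to 716 (median 160.4) in MC + Chemo. The log2 fold change of S100A8 was 3.59 ± 0.87 (edgeR adjusted p = 0.0412) and 2.61 without CTRL 17 and 44. PI3, the elastase inhibitor elafin, had 1.95, 23.2, 10.2 and 24.01 in CTRL against 61.5 to 211 (median 121), with a log2 fold change of 3.06 ± 0.66 (edgeR adjusted p = 0.0327, 2.40 without them). For both genes every combination tumor was above every control. S100A7, the skin protein psoriasin, had 0, 8.11, 0 and 3.75 in CTRL against 9.96 to 113 (median 27.2), and it passed on adjusted p (edgeR, 0.0364) but its mean over the 20 libraries was not above 30.

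Other called genes with large folds act in inflammation and complement. PTGES, which makes prostaglandin E2, had 75.2, 731, 317 and 323 in CTRL and 984 to 1793 (median 1193) in MC + Chemo (log2 fold change 1.81 ± 0.38, edgeR adjusted p = 0.0327, 1.27 without CTRL 17 and 44). LAMP3, a lysosomal membrane protein induced by interferon, had 5.86, 76.4, 19.4 and 69.8 in CTRL against 124 to 178 (median 146) (log2 fold change 1.76 ± 0.45, 1.00 without them). C1S and C1R, proteases that start the classical complement cascade, were both called. C1S had 7.81, 30.1, 8.34 and 22.5 in CTRL against 34.4 to 72.3 (median 54.5) (log2 fold change 1.69 ± 0.38, edgeR adjusted p = 0.0366, 1.08 without them), and C1R had 34.2, 181, 52.8 and 134 in CTRL against 244 to 322 (median 273) (log2 fold change 1.48 ± 0.33, edgeR adjusted p = 0.0345, 0.84 without them). Among 30 inflammatory cytokine and chemokine genes 1 was called higher and 0 lower, 27 were above 0 and the median was 0.72 (0.38 without CTRL 17 and 44). The called gene was BIRC3, an inhibitor of apoptosis induced by NF-κB, with 754, 1548, 498 and 1793 in CTRL against 1799 to 2681 (median 2186) and a log2 fold change of 0.98 ± 0.25 (edgeR adjusted p = 0.0436, 0.44 without them). Its highest control, CTRL 70, lay just under its lowest combination tumor.

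**Figure D2:**
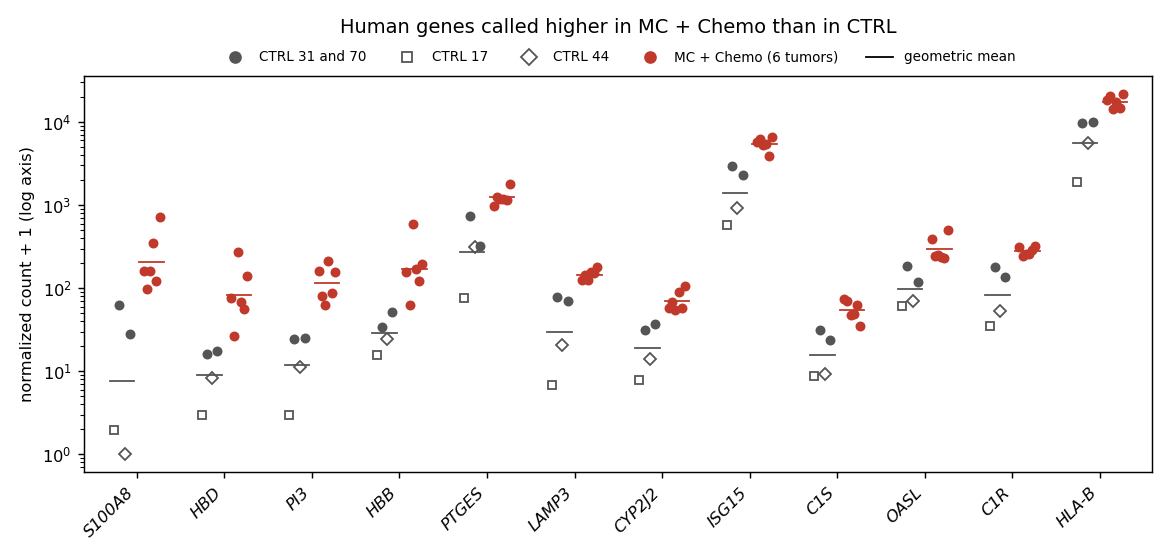
Normalized counts plus 1 on a log axis for the 12 named human genes called higher, 1 symbol per tumor, with the geometric mean of each group as a line. The 6 MC + Chemo tumors are above all 4 CTRL tumors for each gene, CTRL 31 and CTRL 70 are the nearest controls for most, and CTRL 17 and CTRL 44 (open symbols) are farther down.

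The epithelial junction genes followed the split within CTRL. All 27 epithelial junction genes had a log2 fold change above 0, with a median of 0.97, but 1 was called and the median was 0.20 without CTRL 17 and 44. Their summed normalized count was 10726 and 14656 in CTRL 17 and 44, 57602 and 57636 in CTRL 31 and 70, and 57594 to 83750.4 in MC + Chemo. The called member, the tight junction gene CLDN7, had 504, 2573, 1029.8 and 1824 in CTRL and 2877 to 5496 (median 3374) in MC + Chemo, a log2 fold change of 1.30 ± 0.32 (edgeR adjusted p = 0.0415) that was 0.73 without CTRL 17 and 44. Keratin, desmosome and cornified envelope genes had a median of 0.94 over 31 genes with 0 called by edgeR, 7 by DESeq2, and 0.29 without those libraries. Of 28 mesenchymal genes, edgeR called 2 lower (VIM and ZEB1, against 1.15% of all human genes) and 0 higher (against 0.456%). DESeq2 called the same 2 lower (against 2.36%) and 2 higher, CDH2 and FN1 (against 1.85%). The list median was -0.10, and CDH2 was the highest member, at 1.33 on the log2 scale. The log2 fold change of VIM was -1.78 ± 0.46 (edgeR adjusted p = 0.0481) and 0.03 without CTRL 17 and 44. ZEB1, a repressor of E-cadherin, had 1439.7, 246, 1476 and 196 in CTRL and 75.2 to 358 (median 202) in MC + Chemo, a log2 fold change of -1.97 ± 0.49 (edgeR adjusted p = 0.043) that was -0.04 without them. For both genes CTRL 31 and CTRL 70 lay within the range of the combination tumors, so the 2 calls rested on CTRL 17 and CTRL 44.

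Genes called lower included an integrin, matrix genes and growth factors. Of 39 extracellular matrix and integrin genes 3 were called lower (ITGA10, CHRDL1 and COL13A1, against 1.15% of all human genes) and 0 higher. The list median was -0.25 (-0.07 without CTRL 17 and 44). ITGA10, a collagen-binding integrin chain, had 66.4, 28.9, 354 and 27.8 in CTRL and 2.15 to 16.1 (median 9.83) in MC + Chemo, a log2 fold change of -3.62 ± 0.64 (edgeR adjusted p = 0.0305). Without CTRL 17 and 44 it was -1.54, and the groups still did not overlap. CHRDL1, an antagonist of bone morphogenetic proteins, had 185, 23.2, 218 and 6.00 in CTRL against 4.98 to 18.4 (median 7.18), and its log2 fold change of -3.63 ± 0.69 was -0.70 without them. The collagen COL13A1 went from -1.15 ± 0.30 to -0.01. BMP2, a bone morphogenetic protein, had 337, 74.1, 197 and 62.3 in CTRL against 20.1 to 60.5 (median 39.9) (log2 fold change -2.06 ± 0.44, edgeR adjusted p = 0.0327, -0.76 without CTRL 17 and 44). FGF5, a fibroblast growth factor and the 1 called member of 26 vascular growth factor genes, had 465, 38.2, 129 and 33.8 in CTRL against 14.4 to 56.6 (median 22.4) and went from -2.57 ± 0.59 to -0.36. ADAMTS6, a secreted metalloproteinase, had 1098, 227, 308 and 309 in CTRL against 66.6 to 220.3 (median 189.9) (log2 fold change -1.57 ± 0.38, -0.71 without them). The urokinase receptor PLAUR, the other called gene among 19 matrix proteases and inhibitors, was higher, at 4453, 6152, 6146 and 5009.9 in CTRL against 8010.3 to 11203 (median 8217) (log2 fold change 0.74 ± 0.18, 0.70 without them).

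Some genes called lower moved less with the split. ANKRD36B, an ankyrin repeat gene, had 234, 212, 158 and 176 in CTRL 17, 31, 44 and 70 and 32.2 to 98.4 (median 86.04) in MC + Chemo, with a log2 fold change of -1.41 ± 0.26 (edgeR adjusted p = 0.0305) and -1.40 without CTRL 17 and 44. Its near-identical relative ANKRD36 had 329.9, 251, 206 and 275 in CTRL against 30.8 to 155 (median 118), with -1.27 ± 0.29 and -1.26, and reads can be split between the pair. SEC31B, a coat protein of vesicles leaving the endoplasmic reticulum, had 93.7, 53.3, 68.5 and 46.5 in CTRL against 15.9 to 41.5 (median 19.4) (log2 fold change -1.41 ± 0.30, -1.01 without them). DOCK2, an activator of RAC, had 118, 55.6, 75.01 and 55.5 in CTRL against 4.298 to 44.1 (median 21.3) (log2 fold change -1.67 ± 0.38, -1.21). ANK2, which anchors membrane proteins to spectrin, had 104, 50.96, 58.3 and 41.3 in CTRL against 20.8 to 30.7 (median 24.7) (log2 fold change -1.32 ± 0.28, -0.85). In all 5 genes the 6 combination tumors were below the 4 controls, and of the 5 only ANK2 moved by over 1.5 times. CRADD, an adaptor of caspase-2, had 182, 47.5, 167 and 47.3 in CTRL against 17.2 to 36.9 (median 30.6) and went from -1.95 ± 0.35 to -0.72. The channel-like TMC7 went from -1.45 ± 0.31 to -0.66 and the phosphate importer SLC20A1 from -1.32 ± 0.29 to -0.52, and these 3 moved by over 1.5 times without the 2 libraries.

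The genes called lower included 7 that act at the centrosome or cilium. They were picked after their values were seen, without a list of such genes, so nothing is said of the group. CEP152, a scaffold for centriole duplication, had 570.0, 464, 475 and 529 in CTRL and 183 to 359.6 (median 283) in MC + Chemo (log2 fold change -0.87 ± 0.17, edgeR adjusted p = 0.0305, -0.83 without CTRL 17 and 44). CENPJ, another centriole assembly protein, had 466, 344, 367 and 338 in CTRL against 83.8 to 272 (median 186) (log2 fold change -1.03 ± 0.24, -0.88 without them). DYNC2H1, the motor of transport within cilia, had 508, 384, 434 and 319 in CTRL against 118 to 293 (median 232) (log2 fold change -0.89 ± 0.22, -0.67). WDR19, a subunit of the ciliary transport complex, had 232, 230.5, 328 and 269 in CTRL against 109.6 to 192 (median 172) (log2 fold change -0.70 ± 0.16, -0.62). In these 4 the groups did not overlap, and MC + Chemo 52 was the lowest tumor in each. PCNT, ALMS1 and PKD2, encoding pericentrin, a basal body protein and polycystin-2, had log2 fold changes of -0.91, -0.77 and -0.72, and in each of the 3 at least 1 combination tumor reached the controls.

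Division genes as a whole were not called. Of 43 mitosis genes 0 were called by edgeR and 4 lower by DESeq2, 4 were above 0 and the median was -0.29, which became 0.02 without CTRL 17 and 44. Of 50 DNA replication genes 1 was called lower, with a median of -0.10. That gene, HELLS, a chromatin remodeller needed for DNA methylation, had 1269, 1081, 1259 and 979.9 in CTRL and 475 to 857 (median 625) in MC + Chemo, with a log2 fold change of -0.84 ± 0.17 (edgeR adjusted p = 0.0305) and -0.69 without those libraries. The histone genes split. HIST1H4C, a replication-dependent histone H4 gene, had 3213, 1235, 3326 and 1280.0 in CTRL against 683 to 1229 (median 789) (log2 fold change -1.35 ± 0.31, -0.50 without them), whereas HIST1H2BD had 314, 243, 276 and 299 in CTRL against 369 to 502 (median 434) (log2 fold change 0.63 ± 0.16, 0.69). Those were the called members of 20 histone genes tested, and the list median was -0.23, or 0.35 without CTRL 17 and 44. Of 28 p53 target genes edgeR called 1 higher (against 0.456% of all human genes) and 0 lower. It was CDKN1A (the cell cycle inhibitor p21), with 955, 2045, 922 and 2435 in CTRL against 2507 to 2984 (median 2818). Its log2 fold change of 0.82 ± 0.21 (edgeR adjusted p = 0.0496) was 0.32 without CTRL 17 and 44. DESeq2 called 2 of the 28 higher (CDKN1A and GDF15, against 1.85% of all human genes) and 2 lower (CCNG1 and ZMAT3, against 2.36%). The median of the p53 list was 0.10.

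**Figure D3:**
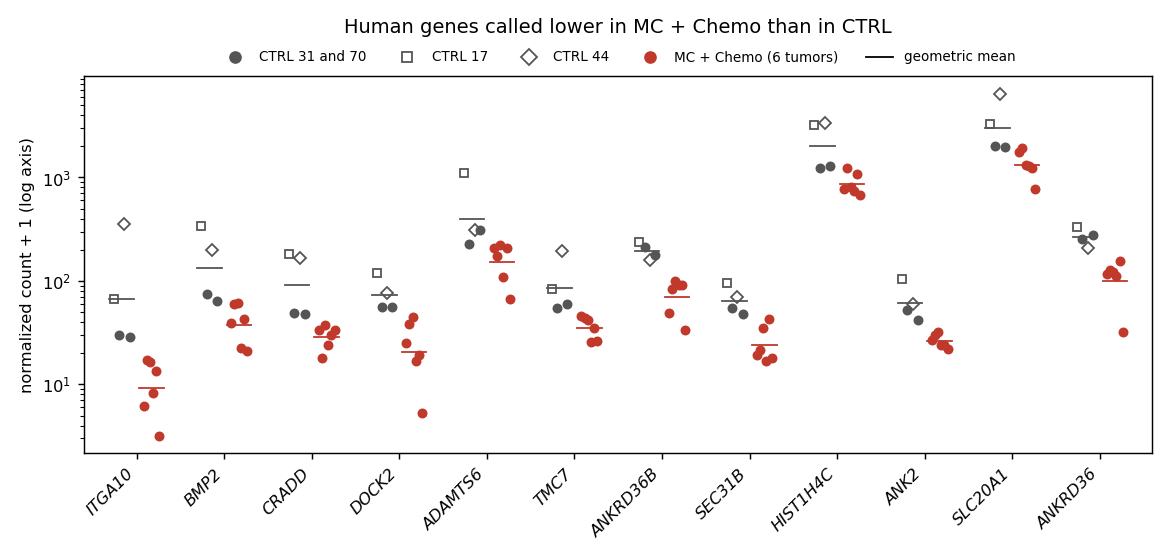
Normalized counts plus 1 on a log axis for the 12 named human genes called lower, 1 symbol per tumor, with the geometric mean of each group as a line. The 6 MC + Chemo tumors are below all 4 CTRL tumors for each gene, and for BMP2, CRADD and ITGA10 the open symbols of CTRL 17 or CTRL 44 are far above CTRL 31 and CTRL 70, which they are not for ANKRD36B and ANKRD36.

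Small GTPase, vascular, glucose transport and cytochrome P450 genes are among those the study set out for this comparison. It chose them on these samples, so they are not independent evidence. Of its 12 human genes 2 were called higher and 1 lower by edgeR, and 4 higher and 2 lower by DESeq2. RHOD, a GTPase of endosome and actin dynamics, had 74.2, 504, 195 and 436 in CTRL and 571 to 957 (median 739) in MC + Chemo (log2 fold change 1.35 ± 0.35, edgeR adjusted p = 0.0496, 0.72 without CTRL 17 and 44). CYP2J2, an epoxygenase of arachidonic acid, had 6.83, 30.1, 12.97 and 36.02 in CTRL against 53.3 to 105 (median 62.4) (log2 fold change 1.72 ± 0.37, edgeR adjusted p = 0.0327, 1.10 without them). Both were above every control in all 6 combination tumors. RHOJ, a GTPase best known from endothelial cells, was called lower, with 263, 50.96, 189.8 and 33.01 in CTRL against 9.31 to 62.7 (median 31.8), and its log2 fold change of -1.998 ± 0.48 was -0.31 without CTRL 17 and 44. The study reports RHOJ as increased by the combination, the opposite direction. RHOF, which forms filopodia, had 316, 720.4, 574 and 560.5 in CTRL against 726 to 961 (median 887), with no overlap and an adjusted p of 0.0647 by edgeR and 0.024 by DESeq2. RHOV had 4.88, 184, 13.9 and 102 in CTRL against 157 to 398 (median 251) (adjusted p = 0.0858 by edgeR and 0.0263 by DESeq2), with CTRL 31 inside the range of the combination tumors. The kinase ROCK2, an effector of such GTPases that was called lower, had 3821, 2343, 3188 and 2077 in CTRL against 1079.5 to 2270.5 (median 1867) (log2 fold change -0.68 ± 0.18, -0.31 without them).

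The human vascular and glucose transport genes the study names did not pass the criteria used here. The study's figure of these genes carries a mark at a looser limit on adjusted p than 0.05. PDGFB, a growth factor for pericytes, had 219, 327, 308 and 419 in CTRL and 423 to 534 (median 439) in MC + Chemo, with a log2 fold change of 0.52 ± 0.34 (edgeR adjusted p = 0.376) although the groups did not overlap. Its receptor PDGFRB had 49.8, 156, 146 and 129.8 in CTRL against 12.2 to 74.1 (median 59.99) human counts, with -1.16 ± 0.41 (edgeR adjusted p = 0.103). The study reports PDGFRB as increased by the combination, the opposite direction. The glucose transporter SLC2A8 had 121, 152, 161 and 142 in CTRL against 161 to 217 (median 186) (log2 fold change 0.38 ± 0.13, edgeR adjusted p = 0.106). LPIN1, a phosphatidate phosphatase and the only called member of 17 fatty acid synthesis genes, had 754, 398, 958 and 534 in CTRL against 224 to 353 (median 279) (log2 fold change -1.25 ± 0.21, edgeR adjusted p = 0.0305, -0.75 without them). LPIN1 was below every control in all 6 combination tumors. Among the P450 genes, CYP11A1 had 0, 13.9, 3.70 and 5.25 in CTRL against 13.3 to 36.5 (median 25.9) (edgeR adjusted p = 0.0637) and CYP26B1, which degrades retinoic acid, had 111, 31.3, 75.01 and 16.5 in CTRL against 7.88 to 46.2 (median 14.7) (edgeR adjusted p = 0.0858). CYP20A1 had 786, 585, 717 and 513 in CTRL against 258 to 504 (median 444), with no overlap and -0.63 ± 0.17 on the log2 scale (adjusted p = 0.0567 by edgeR and 0.0265 by DESeq2). CYP51A1, a sterol demethylase, had 0.05 ± 0.33. The study reports CYP51 as decreased by the combination, in the capitals it uses for human genes. Murine Cyp51, given below, had -0.75 ± 0.17 (adjusted p = 0.124 by edgeR and 0.0086 by DESeq2).

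Remaining tumor lists held few called genes. Of 63 oxidative phosphorylation genes 0 were called by edgeR and 2 higher by DESeq2, while 53 were above 0 with a median of 0.22. Ribosomal protein genes had 0 of 52 called by either tool and a median of 0.10. The stress list held 1 called gene of 33, the transcription factor CEBPB, with 901, 1169, 876 and 1259 in CTRL and 1317 to 2572 (median 1729) in MC + Chemo (log2 fold change 0.75 ± 0.18, 0.54 without CTRL 17 and 44). None of 45 chromatin regulator, 39 hypoxia and glycolysis, 24 sterol synthesis, 26 NRF2 and 20 ABC transporter genes was called by edgeR, and their medians lay between -0.16 and 0.18. At most 2 genes of any of these 5 lists were called by DESeq2.

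Human globin and muscle genes had large differences in the tumor table, and their reads were high in tumors where the murine ones were high. HBB had 14.6, 33.6, 23.1 and 51.02 in CTRL and 61.2 to 594 (median 163) in MC + Chemo (log2 fold change 2.80 ± 0.70, edgeR adjusted p = 0.0434), and HBD had 1.95, 15.1, 7.41 and 16.5 in CTRL against 25.8 to 272 (median 71.8) (log2 fold change 3.35 ± 0.69, edgeR adjusted p = 0.0319). These are the adult beta and delta globin chains of red cells, which in these mice are murine, and reads can be split between the near-identical pair. CKM, muscle creatine kinase, had 674 human and 3677 murine reads in combination tumor 5 and 1070 human and 5345 murine reads in tumor 43, but 0 to 2 human reads in the 4 CTRL tumors, where the murine gene had 9 or 10. MYH2, a fast muscle myosin, had 898 and 1241 human reads in those 2 tumors, 36 in tumor 47 and 0 to 3 in the other 7. Of 18 human globin and muscle genes, 2 were called higher by edgeR (against 0.456% of all human genes) and 15 by DESeq2 (against 1.85%). Their median was 5.77, and 1.77 without MC + Chemo 5 and 43. Whether murine reads were counted on the human genome was not tested.

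**Figure D4:**
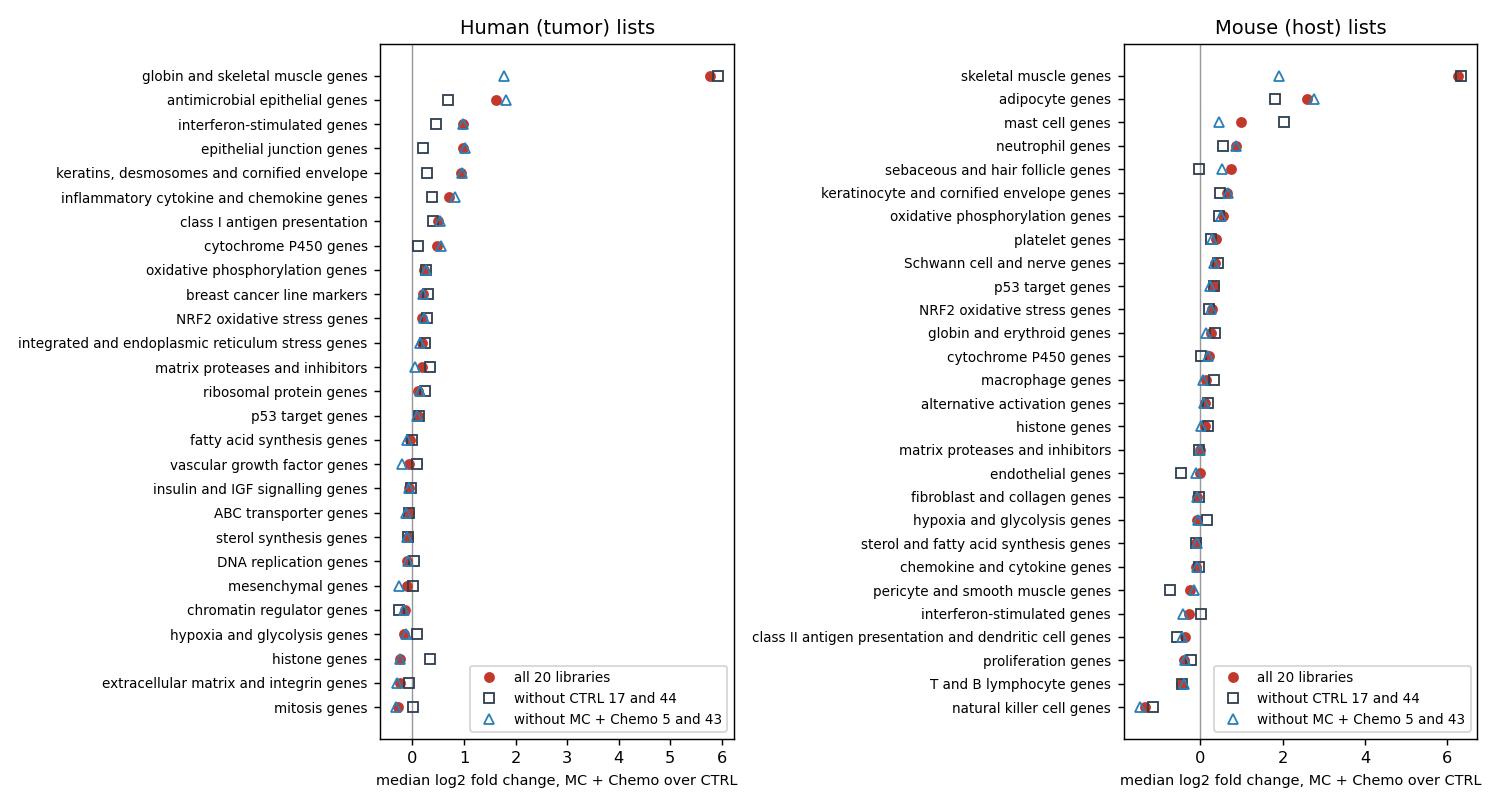
Median log2 fold change (MC + Chemo over CTRL) of 27 human and 28 murine gene lists on the horizontal axis, human left and murine right, for all 20 libraries (filled circles), without CTRL 17 and 44 (squares) and without MC + Chemo 5 and 43 (triangles). In the human panel the antimicrobial, interferon, epithelial and keratin lists drop towards 0 without the 2 controls, and in the murine panel skeletal muscle drops from 6.26 to 1.92 without the 2 combination tumors while natural killer genes stay between -1.47 and -1.15.

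Host genes gave no call by edgeR. Of 15011 murine genes tested, 0 passed, with 1867 at an unadjusted p under 0.05 and a smallest adjusted p of 0.104. DESeq2 called 118 of 16641, 67 higher (0.403%) and 51 lower (0.306%). All 6 combination tumors lay above all 4 controls for 140 murine genes (0.933%) and below them for 255 (1.70%). DESeq2 called 18 without CTRL 17 and 44 and 47 without MC + Chemo 5 and 43, the 2 tumors at 51.02 and 56.83 on the first murine principal component, where the other 8 lay between -36.55 and 18.19. Of 24 T and B lymphocyte genes 9 passed the filter on low counts and 0 were called by either tool. The host genes below are therefore described by their values, and none is said to have changed by the edgeR test.

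Red cell genes were among the higher host genes with the smallest p-values. Hba-a1, an alpha globin, had 176, 478, 384 and 421 normalized counts in CTRL 17, 31, 44 and 70 and 1222 to 4519 (median 1817) in MC + Chemo, with a log2 fold change of 2.59 ± 0.49 (adjusted p = 0.104 by edgeR and 2.04e-05 by DESeq2). Hbb-bs, a beta globin, had 369.9, 1342, 1396 and 949 in CTRL against 3568 to 12358 (median 4684) (log2 fold change 2.62 ± 0.54). Alas2, the first enzyme of heme synthesis in erythroid cells, had 5.04, 14.1, 17.1 and 9.99 in CTRL against 31.1 to 174 (median 58.7) (log2 fold change 2.73 ± 0.60). In all 3, and in Hba-a2 (2.37 ± 0.50) and Hbb-bt (2.74 ± 0.62), the lowest combination tumor was above the highest control. These were the 5 members of 25 globin and erythroid genes that DESeq2 called (against 0.403% of all murine genes called higher). The list median was 0.26, with 20 of 25 above 0. The alpha globin genes are near-identical, as are the beta globin genes, and reads can be split within each pair. Without CTRL 17 and 44 the 5 log2 fold changes were 2.29, 2.44, 2.66, 2.15 and 2.82. Chemo and MC were compared with the same 4 CTRL tumors, so their values are not independent of these. For Hba-a1 they were 2.23 in Chemo and 2.19 in MC, for Hbb-bs 2.41 and 1.86, and for Alas2 2.53 and 1.88. Platelet genes, another blood list, had 0 of 8 called by either tool and a summed count of 3206 to 3963 in CTRL and 4914 to 8045 in MC + Chemo. Of the 8, 5 had a log2 fold change above 0 and 3 below, and the groups overlapped in each gene.

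Natural killer cell genes were the list with the lowest median. Of 19 tested 0 were called by either tool, 18 had a log2 fold change below 0, in 9 all combination tumors lay below all controls (against 1.70% of all murine genes), and the median was -1.34 against 0.01 over all murine genes. It was -1.15 without CTRL 17 and 44 and -1.47 without MC + Chemo 5 and 43. Their summed normalized count was 1691 to 2749.9 in CTRL and 337 to 1371 in MC + Chemo, and the lowest sums were in MC + Chemo 52 and 25. The members given next were chosen after their values were seen. Klra8, an activating receptor of the Ly49 family, had 37.3, 18.1, 32.95 and 26.6 in CTRL and 0 to 8.64 (median 3.61) in MC + Chemo, with a log2 fold change of -2.87 ± 0.59 (edgeR adjusted p = 0.104, DESeq2 adjusted p = 0.00105, mean count not above 30). Klra4 of the same family had 16.1, 40.2, 68.5 and 32.6 in CTRL against 0 to 12.02 (median 2.18) (log2 fold change -3.29 ± 0.76), and counts can be split among these near-identical receptors. Klrk1, the receptor NKG2D, had 121, 129, 113 and 112 in CTRL against 10.8 to 82.1 (median 46.2) (log2 fold change -1.34 ± 0.39, edgeR adjusted p = 0.226). Il2rb, the shared receptor chain for interleukins 2 and 15, had 214, 194, 166 and 202 in CTRL against 20.6 to 141 (median 86.2) (log2 fold change -1.19 ± 0.44). In these 4 the groups did not overlap. Ncr1, the receptor NKp46 that defines the lineage, had 40.3, 47.3, 25.04 and 63.9 in CTRL against 7.17 to 29.7 (median 22.7) (log2 fold change -1.07 ± 0.37), and its groups overlapped. The kinase Lck, shared by T cells and natural killer cells, had 45.4, 50.3, 69.8 and 50.6 in CTRL against 5.85 to 32.8 (median 14.1) (log2 fold change -1.72 ± 0.51). The list median was -0.67 in Chemo and -0.64 in MC against the same controls.

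Dendritic cell, chemokine and alternative activation genes contained further host genes with lower values. Of 24 class II and dendritic cell genes 0 were called by either tool, 2 were above 0 and the median was -0.38 (-0.57 without CTRL 17 and 44). In 1 of the 24 all combination tumors lay below all controls (against 1.70% of all murine genes). H2-Aa and Ccr7, given next, were chosen after their values were seen. H2-Aa, a class II chain, had 9027, 15935, 18106 and 15090.5 in CTRL and 5912 to 20355 (median 13954) in MC + Chemo, so that the groups overlapped widely. Ccr7, which brings dendritic cells to lymph nodes, had 95.8, 111, 108 and 97.9 in CTRL against 11.7 to 85.5 (median 47.96) with no overlap (log2 fold change -1.03 ± 0.41, edgeR adjusted p = 0.311). Ccl17, a chemokine made by dendritic cells, had 26.2, 207, 275 and 146 in CTRL against 19.3 to 57.03 (median 32.3), and CTRL 17 alone among the controls reached the combination tumors (log2 fold change -2.10 ± 0.56, edgeR adjusted p = 0.172, DESeq2 adjusted p = 0.0255). Ccl22, which shares its receptor CCR4, had 29.2, 55.3, 90.9 and 53.9 in CTRL against 7.17 to 36.1 (median 12.5) (log2 fold change -1.73 ± 0.46, DESeq2 adjusted p = 0.0308). Cxcl9, an interferon-gamma-induced chemokine for natural killer and T cells, had 1339.7, 1844, 1311 and 1469 in CTRL against 139 to 989.5 (median 344) with no overlap (log2 fold change -1.57 ± 0.42, DESeq2 adjusted p = 0.0255). DESeq2 called these 3 lower among 35 chemokine and cytokine genes (against 0.306% of all murine genes). It called 1, Cxcl14, higher (against 0.403%), and edgeR called 0. Of the 35, 15 were above 0, and the list median was -0.11. Retnla, a secreted marker of alternatively activated macrophages, had 4125, 437, 888 and 903 in CTRL against 33.1 to 402 (median 178) (log2 fold change -3.00 ± 0.69, -1.76 without CTRL 17 and 44). Ear2, a ribonuclease of eosinophils and macrophages, had 47.4, 67.4, 136 and 87.9 in CTRL against 3.90 to 33.7 (median 19.2) (log2 fold change -2.10 ± 0.47, -1.99 without them). Both had no overlap between the groups. Retnla, Ear2 and Ccl17 were the 3 of 19 alternative activation genes that DESeq2 called, all lower (against 0.306% of all murine genes). Most of the list went the other way, with 12 of 19 above 0 and a median of 0.11. Macrophage genes had 0 of 25 called by either tool and a median of 0.15.

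Secondary granule genes of immature neutrophils appeared in part of the combination tumors. Ngp had 1.01, 1.01, 0 and 1.33 in CTRL and 40.1, 46.8, 142, 16.02, 1.73 and 0.896 in MC + Chemo 5, 25, 43, 47, 50 and 52 (log2 fold change 5.30 ± 1.67, edgeR adjusted p = 0.229, DESeq2 adjusted p = 0.0185). Camp, the cathelicidin precursor, had 4.03, 2.01, 0 and 2.66 in CTRL against 37.7, 58.5, 162, 16.02, 3.46 and 3.58 in the same order. Ltf, lactoferrin, which was chosen after its values were seen, had 0, 1.01, 1.32 and 0.666 in CTRL against 23.3, 17.5, 38.6, 12.02, 2.59 and 0.896. In all 3 genes combination tumors 5, 25, 43 and 47 stood well above the controls, and tumors 50 and 52 lay near them. The log2 fold changes of Ngp, Camp and Ltf in Chemo against the same controls were 7.93, 6.53 and 6.54, and in MC they were 1.74, -0.04 and 1.79. The difference between the treatments was not tested. Of 22 neutrophil genes Ngp and Camp were called higher by DESeq2 and 0 by edgeR, 18 were above 0, 4 were below 0 and the median was 0.86. The lowest member of the list was Mmp9, at -1.68 on the log2 scale. Mmp8, a neutrophil collagenase that the study names, had 7.06, 16.1, 13.2 and 11.3 in CTRL against 8.07 to 54.5 (median 28.9) (log2 fold change 1.30 ± 0.51, edgeR adjusted p = 0.311).

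Muscle and fat genes marked single tumors. The summed normalized count of 38 skeletal muscle genes was 1848 to 2356 in CTRL, 73732 in combination tumor 5, 105890.0 in tumor 43, 5713 in tumor 47 and 1859 to 3138 in the other 3. Ckm had 9.07, 9.05, 13.2 and 5.99 in CTRL and 2951, 11.7, 4695, 126, 8.64 and 19.7 in MC + Chemo 5, 25, 43, 47, 50 and 52, and Acta1, skeletal actin, had 24.2, 36.2, 28.99 and 19.3 in CTRL against 11062, 33.1, 19228, 681, 12.1 and 96.8. DESeq2 called 26 of the 38 higher (against 0.403% of all murine genes) and edgeR 0, and the median was 6.26 with and 1.92 without MC + Chemo 5 and 43. Mb, Myh2 and Mybpc1, the named members, were at 0 to 2.66 in the 4 controls. The adipocyte list had a median of 2.58 over 27 genes, all above 0, and a summed count of 2363 to 17421 in CTRL and 3301 to 193373 in MC + Chemo. Adipoq, the adipokine adiponectin, had 8.06, 319.8, 69.8 and 433 in CTRL against 1698, 35.1, 609, 830.5, 59.6 and 7196, so that MC + Chemo 52 stood far above and MC + Chemo 25 and 50 lay among the controls. Cox8b, a mitochondrial subunit of brown fat and muscle, was called by DESeq2 with 3.02, 3.02, 9.22 and 2.66 in CTRL against 314, 5.85, 324, 14.7, 3.46 and 842. All 66 murine oxidative phosphorylation genes had a log2 fold change above 0 (median 0.54), with 0 called by edgeR and 2 by DESeq2. Their summed count was highest in MC + Chemo 52, 43 and 5, the tumors with the most fat or muscle counts. The part of muscle and fat tissue in it was not tested.

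Several cell cycle, DNA damage and centrosome genes were among the lower host genes named here. They were put together after their values were seen, so nothing is said of the group, and Atm was chosen outside the naming rule. Rbl1, the pocket protein p107, had 109, 87.5, 92.2 and 85.2 in CTRL and 38.5 to 73.5 (median 48.4) in MC + Chemo (log2 fold change -0.89 ± 0.18, edgeR adjusted p = 0.104, DESeq2 adjusted p = 0.00383). Atr, the kinase that senses stalled replication, had 149, 212, 219 and 195 in CTRL against 98.6 to 139 (median 119) (log2 fold change -0.71 ± 0.15), and Atm, which senses double-strand breaks, had 198, 184, 175 and 144 in CTRL against 73.5 to 144 (median 113) (log2 fold change -0.66 ± 0.17). Cep250, a centrosome linker, had 188, 126, 183 and 120.5 in CTRL against 59.2 to 108 (median 83.8) (log2 fold change -0.87 ± 0.18, -0.56 without CTRL 17 and 44). Wdr19 had 151, 67.4, 61.9 and 58.6 in CTRL against 25.99 to 40.6 (median 33.99) (log2 fold change -1.30 ± 0.28, -0.88 without them). In these 5 genes the groups did not overlap, although for Atm the highest combination tumor and the lowest control were almost equal. Atad2, Btbd3, Cplane1, Magi2 and Spopl, the other lower genes the rule names, had log2 fold changes of -0.64, -0.96, -0.85, -0.96 and -0.62 and were called by DESeq2. Cyp51, the sterol demethylase, had 292, 276, 270.2 and 275 in CTRL against 134 to 199 (median 169.5) (log2 fold change -0.75 ± 0.17, -0.75 without CTRL 17 and 44), the only one of 29 sterol and fatty acid synthesis genes that DESeq2 called. Proliferation genes had 0 of 40 called by either tool, 2 above 0 and a median of -0.38.

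Lower host genes shared names with lower tumor genes. Of 43 murine genes with a symbol that DESeq2 called lower, 15 carried the name of a human gene called lower (34.9%), which was 10.7% of the 140 human genes called lower whose namesake was tested, where DESeq2 called 0.306% of all murine genes lower. They included BMP2, BTBD3, CEP83, WDR19 and ZEB1. On the higher side 1 name was shared, FOXO6. The murine namesakes of the human genes called lower had a median log2 fold change of -0.50, with 128 of 140 below 0 against 7341 of all 15011 murine genes tested, and it was -0.34 without CTRL 17 and 44. Those of the human genes called higher had a median of 0.28, with 38 of 58 above 0 against 7670 of all 15011, and 0.18 without CTRL 17 and 44. Both counts come from the same libraries, so the species are not independent measurements. For Foxo6, a transcription factor the study names, the human and murine reads were nearly equal in each tumor, at 57 and 54 in CTRL 17, 74 and 73 in CTRL 31, 105 and 104 in combination tumor 5 and 227 and 218 in tumor 52. Its murine normalized count was 54.4, 73.4, 57.99 and 35.96 in CTRL and 83.5 to 195 (median 116) in MC + Chemo (log2 fold change 1.219 ± 0.27). The human share of the pair was 50.2% to 53% over the 10 tumors. For PDGFB and Pdgfb it was 50.9% to 55.2%, and for MMP24 and Mmp24, a membrane metalloproteinase, 52.9% to 59.7%. A share that stayed near equality, as for FOXO6 and PDGFB (45% to 56% in all 10 tumors) held for 161 of 9308 namesake pairs with at least 200 reads in each species, or 1.73%. That range holds FOXO6 and PDGFB but not MMP24 and is not independent of them, so the 1.73% does not measure how rare they are. The typical pair ranged over 18.2 percentage points between its lowest and highest tumor. Whether single reads were counted in both tables was not tested. Mmp24 had 16.1, 138, 31.6 and 99.9 murine counts in CTRL and 147 to 328 (median 187) in MC + Chemo (log2 fold change 1.54 ± 0.45, DESeq2 adjusted p = 0.038, 0.81 without CTRL 17 and 44), and CTRL 17 and 44 were lowest in both species.

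Other named host genes were higher in all combination tumors. Tuba4a, an alpha tubulin, had 661, 901, 639 and 765 in CTRL and 1228 to 2216 (median 1752) in MC + Chemo (log2 fold change 1.23 ± 0.23, edgeR adjusted p = 0.104, DESeq2 adjusted p = 3.65e-04). Exoc4, of the exocyst complex, had 266, 313, 229 and 264 in CTRL against 368 to 480.5 (median 449.7) (log2 fold change 0.72 ± 0.15), and Slc45a3 had 40.3, 41.2, 52.7 and 48.6 in CTRL against 74.7 to 129 (median 82.2) (log2 fold change 1.05 ± 0.22). Prrg1, Ube2h and Trip6 had log2 fold changes of 0.79, 0.86 and 0.61. Cyp2e1, a P450 enzyme named by the study, had 2.02, 5.03, 9.22 and 6.66 in CTRL against 11.7 to 74.4 (median 23.3) (log2 fold change 2.46 ± 0.78, edgeR adjusted p = 0.233). Of 30 murine p53 target genes 0 were called by either tool, 26 were above 0, the median was 0.33, and their summed count was 4793 to 5413 in CTRL and 6218 to 7371 in MC + Chemo without overlap. Cdkn1a, the most studied of them, had 1199, 812, 868 and 611 in CTRL against 992 to 1682 (median 1495) (log2 fold change 0.68 ± 0.21, edgeR adjusted p = 0.226). Its log2 fold change was 0.75 in Chemo and -0.28 in MC against the same controls.

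Vessel and stroma lists held no gene called by edgeR. Endothelial genes had 0 of 30 called by either tool and a median of 0.00, which was -0.47 without CTRL 17 and 44, with a summed count of 3842 in CTRL 17 against 7542 to 10945 in the other controls and 3938 to 10752 in MC + Chemo. Pericyte and smooth muscle genes had 1 of 17 called by DESeq2, desmin (Des), which is also a muscle gene, and a median of -0.24 (-0.73 without them). Fibroblast and collagen genes had 0 of 35 called by either tool and a median of -0.08. Mast cell genes had a median of 0.99 over 9 with 0 called by either tool, and their summed count was 320.3 to 738 in CTRL and 315 to 1756 in MC + Chemo. Keratinocyte genes had 0 of 14 called by either tool and a median of 0.64.

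**Figure D5:**
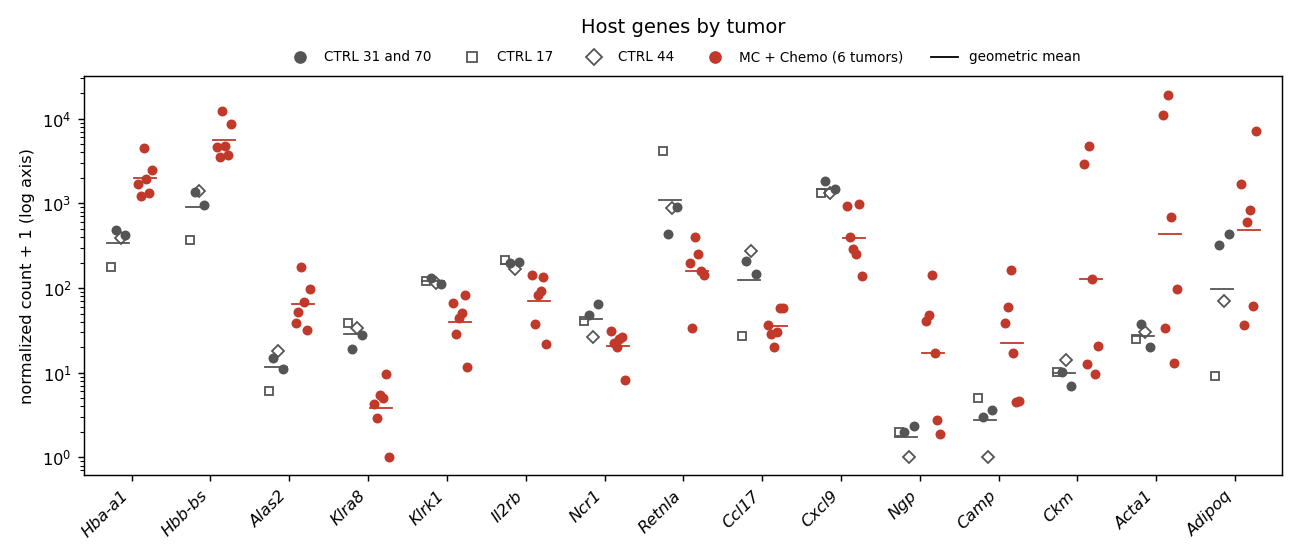
Normalized counts plus 1 on a log axis for 15 host genes of red cells, natural killer cells, chemokines, neutrophil granules, muscle and fat, 1 symbol per tumor, with the geometric mean of each group as a line. The globin genes and Alas2 are higher and Klra8, Klrk1, Il2rb, Retnla and Cxcl9 lower in all 6 MC + Chemo tumors than in all 4 CTRL tumors, while Ckm, Acta1, Ngp, Camp and Adipoq are high in part of the combination tumors.

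Set beside the single treatments, the leading tumor genes had the following values in each arm. Chemo, MC and MC + Chemo were each compared with the same 4 CTRL tumors, so these values share their controls and no test of their likeness was made. In the order Chemo, MC and combination, the log2 fold change of ISG15 was 1.41, 0.90 and 1.71. In that order it was 0.86, 0.39 and 1.03 for B2M, 2.42, 2.78 and 3.06 for PI3, and -4.49, -2.43 and -3.62 for ITGA10. It was -0.46, -0.64 and -1.41 for ANKRD36B, -0.43, -0.30 and -0.84 for HELLS, and -0.26, -0.40 and -0.87 for CEP152. The interferon-stimulated list had medians of 1.06, 0.64 and 0.98. Whether the combination differed from either single treatment was not tested here.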

How the data were processed

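Tumors were profiled by QuantSeq 3′ RNA sequencing with 50-base forward reads. The authors aligned reads to the human and murine genomes on the BlueBee platform and deposited raw counts per gene for each species. The murine build is GRCm38 per the labels, and the human build is not given in the sources used here. The authors also deposited normalized counts (signal scale, DESeq2 1.22.2), which equal the raw counts divided by 1 factor per library and were not tested. The 18880 human and 16667 murine genes each had at least 72 reads over the 24 libraries.

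The raw counts of the 20 libraries from obese mice were fitted by species with edgeR 4.0.16 (TMM, filterByExpr, quasi-likelihood F test, Benjamini-Hochberg adjustment) in R 4.3.3. DESeq2 1.42.0 was the alternative tool. Both were tested on simulated data with known changes. The simulated tumors of a group were alike apart from an even spread, so those data do not test a split such as that within CTRL. Depth is given with the results, and p-values measure the spread between tumors. Symbols come from the deposited tables, and 5259 human and 2991 murine genes without one were tested and not named. The strand setting of the counting is not stated, so overlapping and antisense genes are uncertain.

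Named genes were the 12 higher and 12 lower human genes with the largest fold changes among those called without overlap, up to 3 called members per list, and the genes the study names. For the host, where none was called, they were the 12 higher and 12 lower with the smallest p among genes without overlap, a mean above 30 and a fold above 1.5, and up to 3 members per list called by DESeq2. The highest and lowest member of a list could also be named. A further 18 human and 19 murine genes were chosen after their values were seen. Some genes the rule selects are not reported here. The comparison and the lists were chosen with earlier results of these data known, so lists received no test. No sequences were printed, since no reference sequence was used here.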

Additional observations from a re-analysis of the deposited data

Results flagged for a closer look

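In 14 of 256 groups of values tested, 1 tumor lay farther from the others of its group than Dixon's 95% limit allows, on the log2 scale. By chance about 5 percent of groups would. MC + Chemo 52 accounted for 7 of the 14. It was lowest of the combination tumors for human ANKRD36 (30.8 normalized counts), CYP20A1 (257.9), DYNC2H1 (117.5) and PDGFRB (12.18) and for murine Ncr1 (7.17), and highest for B2M (40280.0) and CLDN7 (5496). CTRL 17 was lowest of the controls for B2M (7227) and PDGFRB (49.78) and highest for murine Wdr19 (151.2). For Elane, CTRL 31 was the only control above 0 (1.006), and for Mb CTRL 70 was (1.998). CTRL 44 was highest for Cox8b (9.225), and MC + Chemo 25 was highest of the combination tumors for Btbd3 (101.3).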

How the results depend on the processing

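The number of human genes called depended on the libraries and the tool. Against 264, DESeq2 called 795 and the fit to all 24 libraries 514, whereas the fit to the 10 libraries alone called 0, with 2652 at an unadjusted p under 0.05. Size factors in place of TMM gave 245, no filter on low counts 227, adjusted p alone 343, and MC + Chemo 5 taken as MC 243. The higher share of calls was 28.4% by edgeR and 43.9% by DESeq2. Leaving out 1 tumor gave 0 to 1176 human calls by edgeR and 179 to 1621 by DESeq2. Choices made after seeing the data gave 0 by edgeR and 37 by DESeq2 without CTRL 17 and 44. Without MC + Chemo 5 and 43 they gave 0 by edgeR, with 3276 at an unadjusted p under 0.05, and 601 by DESeq2. Host calls by edgeR were 0, or 0 to 1 with 1 tumor left out. DESeq2 called 118, with 59 to 262 when 1 tumor was left out, 18 without CTRL 17 and 44 and 47 without MC + Chemo 5 and 43. VIM reversed to 0.031 on the log2 scale without CTRL 17 and 44. CYP51A1, at 0.05, ran from -0.19 to 0.48 with 1 tumor left out. Of 1275 alternative values for 71 named human genes 474 lost their call, 169 of them other than by leaving out 1 tumor, and 5 reversed, all in those 2 genes, and of 1020 for 57 named murine genes 0 reversed. The causes were not tested. Mouse numbers are not shared between groups. No paired analysis was possible because the groups compared share no replicate numbers.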
